A study of Mus musculus with 5 samples.

Results

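Compound C was compared with vehicle in mouse embryonic fibroblasts (MEFs) after 9 hours, on 1 array each. The comparison takes 2 of the series' 5 arrays and describes 12317 of the 22180 genes that had a probe set with a single symbol. Those genes were represented by their brightest probe set and reached the median signal of an array on at least 1 of the 5 arrays. Every group shared the same cells, which lacked endogenous STING and had been given back its R284S variant, were labelled as primary MEFs and grew in DMEM with 10% FBS. The 5 groups were vehicle, Compound C, doxorubicin, GSK 690693 and tofacitinib, and the labels give neither the doses nor the solvent. With 1 array a group there is no spread between samples, so no difference below has an error or a p-value. All values are log2 signals, and a difference is the Compound C array minus the vehicle array unless another reference is named.

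Compound C, also called dorsomorphin, is an ATP-competitive inhibitor of the energy-sensing kinase AMPK. GSK 690693 was made as an inhibitor of the kinase AKT, tofacitinib inhibits JAK kinases, which act downstream of interferon receptors, and doxorubicin damages DNA. Compound C also blocks BMP type I receptors, whose signal reaches the genome through SMAD1, SMAD5 and SMAD9, and it inhibits several other kinases. R284S is a gain-of-function form of STING, the adaptor that passes the cytosolic DNA signal to the kinase TBK1 and the factor IRF3. The series was designed around AMPK inhibitors in cells with this variant, so the comparison asks which transcripts, inflammatory and other, read differently after the compound.

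The median signal of the described genes was 7.22 on the vehicle array and 7.16 on the Compound C array, and lay between 7.16 and 7.39 on the others. All 15 fibroblast markers listed passed the filter. Their summed signal was 142.14 under vehicle, 142.03 under Compound C and between 142.03 and 145.42 over the 5 arrays. Their median signal was 9.87 under vehicle and 9.14 under Compound C, and at 2-fold 1 was higher and 1 lower. Macrophage markers passed in 3 of 11 cases, endothelial in 2 of 9 and lymphocyte in 1 of 8. Ptprc, Adgre1, Pecam1 and Cd3e were among those that did not. Epithelial markers passed in 7 of 12 cases and their summed signal over all 12 was 61.53 with vehicle, 64.45 with Compound C and between 61.02 and 64.45 over the 5 arrays. Of the 7 that passed, 2 were at least 1.5-fold higher with Compound C and 0 lower, and Compound C was the highest array for 4. Grhl3 differed by 2.17, and Epcam and Krt14 stayed below the filter. The probe set of the STING gene was below the filter as well and checks neither the knockout nor the reconstitution.

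At least 2-fold higher with Compound C were 160 genes, 1.3% of those described, and 311 were at least 2-fold lower, 2.52%. At 1.5-fold there were 747 higher, 6.06%, and 1230 lower, 9.99%, together 16.1%. Counts at 1.5-fold within the groups below are to be read beside these shares. After each array was centred on its own median the split was 945 to 1026. By sign alone and without centring, 5736 of the 12317 genes lay above vehicle and 6435 below. Within 0.1 of the 2-fold threshold, 70 higher genes lay just outside and 46 just inside, and 123 lower genes just outside and 83 just inside. Of the 160 higher genes, 155 read highest of all 5 arrays with Compound C, and 71 of all described genes (0.576%) did so by 1 or more. Of the 311 lower genes, 248 read lowest with Compound C, and 55 genes (0.447%) did so by 1 or more. Choosing the genes by their Compound C value favours such positions. On the vehicle array 36 of the 160 lay below the array median, and on the Compound C array 59 of the 311 did. Vehicle itself was the highest array for 122 of the lower genes, and for 38 of these Compound C was not the lowest. For the higher genes, vehicle was the lowest array in 44 of 160. Over all described genes, vehicle stood above the other 4 arrays by 1 or more for 1 gene, 0.00812%, and below them for 0. How often Compound C or vehicle was the highest or lowest array by any margin was not counted over all described genes. Such counts within the groups below therefore have no share of all genes beside them. A second probe set was on the array for 21 of the 2-fold genes and had the same sign for 18, but only 5 of the 21 differed by 1.5-fold or more the same way. Where the second probe set also passed the filter, it had the same sign for 5 of 5 and was that far apart for 3.

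**Figure D1:**
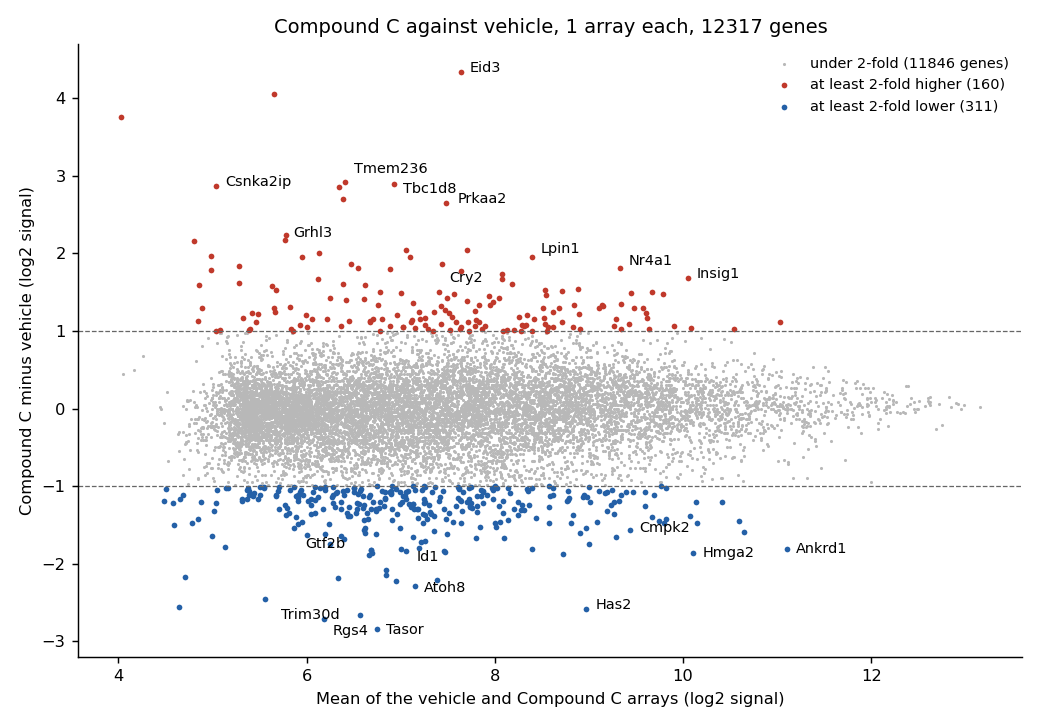
Each point is 1 gene. The horizontal axis is the mean log2 signal of the vehicle and Compound C arrays, the vertical axis is the difference, and dashed lines mark 2-fold. The 160 higher genes reach 4.34 in Eid3, and the 311 lower genes reach −2.84 in Tasor.

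The largest differences came from genes that were dim on 4 arrays and bright with Compound C alone. Eid3, an EP300 inhibitor and SMC5/6 subunit, read 5.47 under vehicle and 9.81 under Compound C, and 5.06, 5.63 and 5.59 under doxorubicin, GSK 690693 and tofacitinib. Tmem236, a membrane protein gene, read 4.95, 7.87, 5.0, 4.55 and 4.39 in the order vehicle, Compound C, doxorubicin, GSK 690693, tofacitinib, which holds wherever 5 values follow each other. Grhl3, a factor of epidermal differentiation, read 4.68, 6.85, 4.55, 4.87 and 4.47, so its vehicle value lay below the array median. In each of these 3 genes the Compound C value stood apart and the other 4 lay close together. Tmem236 and Grhl3 passed the filter only through the Compound C array.

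Brighter genes showed the same arrangement. Lpin1, which makes diacylglycerol from phosphatidate and acts as a coregulator of metabolic genes, read 7.41 under vehicle and 9.37 under Compound C, and 6.95, 7.50 and 7.35 under doxorubicin, GSK 690693 and tofacitinib. Kcne4, a potassium channel subunit, read 6.12, 8.07, 5.66, 6.03 and 6.16. Further down the ranking of higher genes were Mreg (1.81), Perp (1.77), Rab40c (1.74), Tlcd2 (1.67), Plek2 (1.59) and the keratinocyte factor Bnc1 (1.53). Compound C was the highest array for each of these.

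On the lower side, Tasor, the scaffold of the HUSH silencing complex, read 8.17 under vehicle and 5.33 under Compound C, and 6.97, 8.12 and 8.21 under doxorubicin, GSK 690693 and tofacitinib. Ccn4, a matricellular Wnt target, was more sharply set apart, at 9.66, 7.78, 9.58, 9.72 and 9.93. Hmga2, an architectural chromatin protein of embryonic cells, read 11.04, 9.18, 10.59, 11.21 and 10.95. Exosc1, a subunit of the RNA exosome, read 9.87, 8.13, 9.50, 9.90 and 10.05. Doxorubicin was the next lowest array in these 4 genes, and in Tasor it lay well below the other 3. Psmg2, a proteasome assembly factor, differed by −2.08, but its second probe set was dim and read 2.31 and 2.30.

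**Figure D2:**
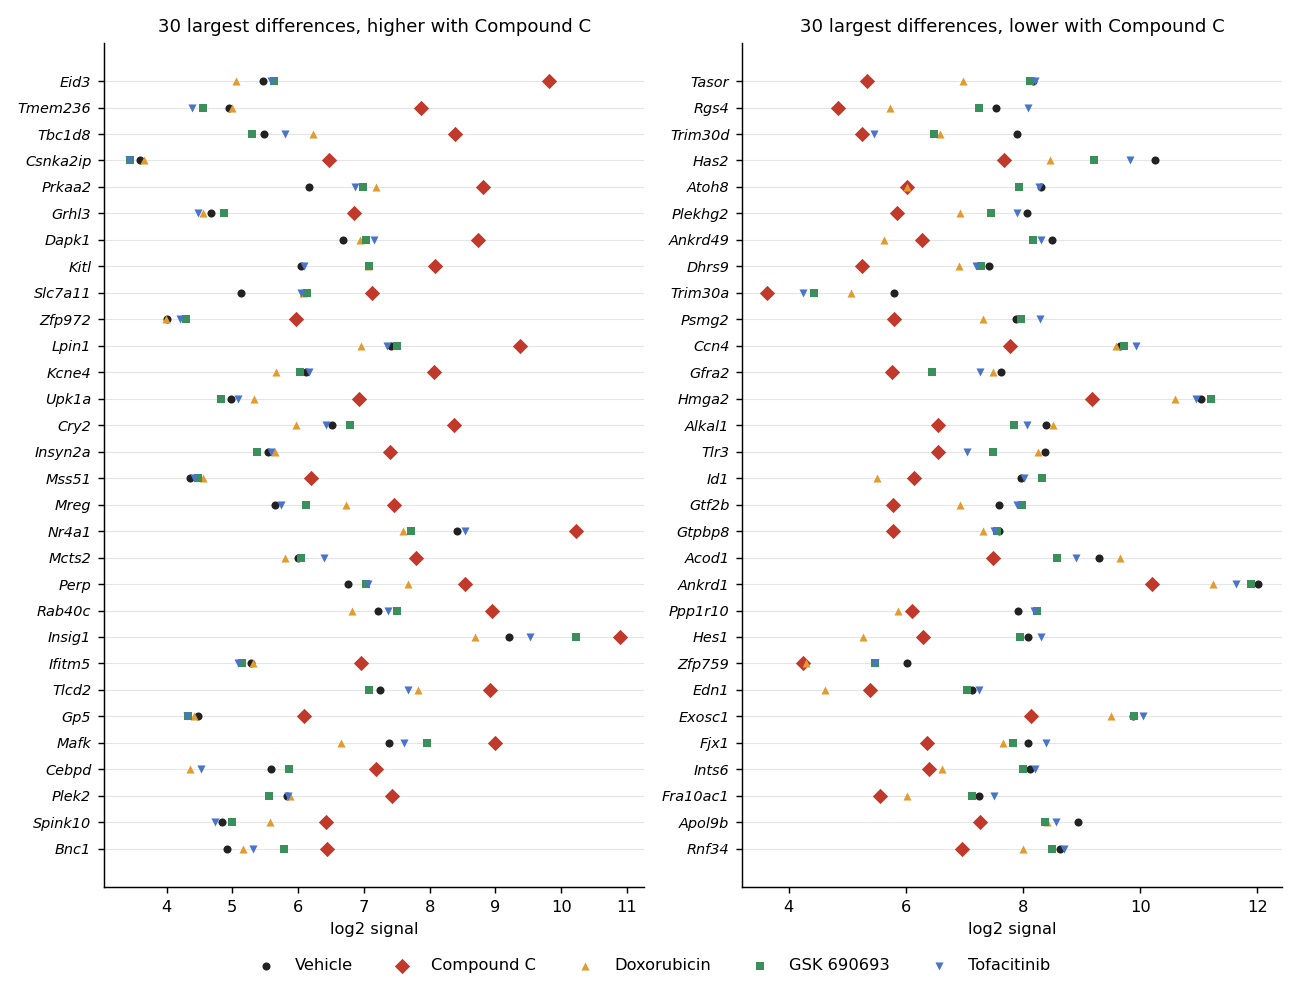
The 30 genes with descriptive symbols that read furthest above vehicle (left) and furthest below (right), with the log2 signal of each of the 5 arrays on the horizontal axis. On the left the Compound C diamond stands at the right end of every row, and on the right it stands at the left end except where the doxorubicin triangle lies lower, as in Id1, Hes1 and Ankrd49, or level with it, as in Atoh8.

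Some precursor loci of microRNAs (miRNAs) were among the extremes. They fall outside the rule by which genes are named, and those given here were chosen after their values were seen. MicroRNAs are short RNAs cut from hairpin precursors, and bases 2 to 8, the seed, pair with target transcripts. The array reads the hairpin region of the primary transcript or host RNA, and mature miRNAs were not measured separately. Of 97 miRNA genes past the filter, 6 read 2-fold or more above vehicle, beside 1.3% of all genes, and 7 as far below, beside 2.52%. The 6 were Mir181b-1, Mir181a-1, Mir1983 (2.24), Mir34a, Mir5125 (1.34) and Mir680-3 (1.0). All but Mir5125 passed the filter only through the Compound C array. Entry by that array favours a high reading, so the 6 cannot be read as an excess over 1.3%. The median of the 97 was −0.05. Mir181b-1 read 3.62 under vehicle and 7.68 under Compound C, and 3.26, 4.08 and 3.77 under doxorubicin, GSK 690693 and tofacitinib, a difference of 4.06 that is second only to Eid3 among all described genes. Mir181a-1 read 2.15, 5.91, 2.13, 1.84 and 2.23. Their hairpins lie 97 bases apart on the plus strand of chromosome 1 in GRCm38.p6, and on both the Compound C array stood alone. Of the other miR-181 loci, Mir181c read 6.77 with vehicle and 6.42 with Compound C, and Mir181d read 7.82 on both. Below the filter, Mir181b-2 read 3.42 and 3.48. Mir181a-2, also below the filter, read 4.45 with vehicle and 5.20 with Compound C, its highest array, a difference of 0.75. Mir34a, a direct p53 target, read 4.06, 5.65, 3.95, 3.82 and 3.71. Mir181a-1, Mir181b-1 and Mir34a passed the filter only through the Compound C array. The mature 5′ arms of Mir181a-1, Mir181b-1 and Mir34a are shown with the seed in capitals, from RefSeq on GRCm38.p6, because the miR-181 arms share one seed.
miR-181a-5p of Mir181a-1, chr1:137966468-137966490, plus strand: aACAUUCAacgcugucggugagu
miR-181b-5p of Mir181b-1, chr1:137966650-137966673, plus strand: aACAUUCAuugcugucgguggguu
miR-34a-5p of Mir34a, chr4:150068473-150068494, plus strand: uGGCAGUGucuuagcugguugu

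A different set of precursors read lower. RefSeq places 37 hairpins, with neighbours at most 50 kb apart, on the plus strand of chromosome 12 between 109682197 and 109747960, the imprinted cluster next to Meg3. Of the 8 that passed the filter, 5 were at least 2-fold lower and 0 higher, with a median of −1.42. Mir300 read 5.92 under vehicle and 3.36 under Compound C, and 2.74, 4.64 and 5.56 under doxorubicin, GSK 690693 and tofacitinib. Mir453 read 7.92, 5.77, 4.10, 7.06 and 7.91, and Mir667 read 7.61, 5.72, 5.03, 6.25 and 6.85. Compound C was the lowest array for 1 of the 8, and with doxorubicin 7 were at least 1.5-fold below vehicle. Mir145a, a smooth muscle miRNA, read 6.79, 4.33, 2.67, 5.07 and 5.90. The lower members of the cluster have different seeds, as their mature arms show with the seed in capitals.
miR-300-3p of Mir300, chr12:109724363-109724384, plus strand: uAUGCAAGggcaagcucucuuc
miR-667-3p of Mir667, chr12:109720061-109720083, plus strand: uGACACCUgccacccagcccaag
miR-329-3p of Mir329, chr12:109713541-109713562, plus strand: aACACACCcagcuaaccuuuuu
miR-679-5p of Mir679, chr12:109715587-109715608, plus strand: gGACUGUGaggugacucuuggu

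The kinase that the compound is used to inhibit differed in its own subunit transcripts. Prkaa2, the alpha 2 catalytic subunit of AMPK, read 6.16 under vehicle and 8.81 under Compound C, and 7.18, 6.99 and 6.86 under doxorubicin, GSK 690693 and tofacitinib. Vehicle was the lowest and Compound C the highest array, so against the median of the other 4 the difference was 1.89 in place of 2.65. Prkaa1, the alpha 1 subunit, read 10.67 with vehicle and 9.97 with Compound C, the lowest of its 5 values. The 6 subunit genes past the filter had a median of −0.005, with 1 higher and 1 lower at 1.5-fold. Among related kinases, Nuak1 read 9.54 with vehicle, 8.07 with Compound C and 7.93 with doxorubicin. Melk, a mitotic member of the family, differed by −1.04 and the salt-inducible kinase Sik1 by 0.77. Stk11, which encodes the upstream kinase LKB1, read 8.49 and 8.99. The folliculin partners Fnip2 and Fnip1, which bind AMPK, differed by 1.26 and 0.82.

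Transcripts induced by BMP receptors had the lowest median of the 97 groups. Of 14 BMP target and feedback genes, 10 were at least 1.5-fold lower and 0 higher, with a median of −1.05, where 9.99% of all genes were that much lower and the median of all genes was −0.02. Id1, an inhibitor of basic helix-loop-helix factors and a direct SMAD1/5 target, read 7.97 under vehicle and 6.14 under Compound C, and 5.51, 8.32 and 8.02 under doxorubicin, GSK 690693 and tofacitinib. Id3 read 8.98, 7.74, 5.94, 9.02 and 9.23. Smad6, the inhibitory SMAD that BMP induces against itself, read 7.32, 5.97, 6.07, 7.49 and 7.56. In all 3 the GSK 690693 and tofacitinib arrays lay at or above vehicle, and both Compound C and doxorubicin lay below. Id2 (−0.96), Id4 (−0.94), Dlx2 (−1.26), Unc5b (−1.15) and Tnfrsf11b (−0.92) were also lower. The shared SMAD feedback gene Smad7 read 8.19 with vehicle, 7.87 with Compound C and 6.0 with doxorubicin. Against the median of the other 4 arrays the group stood at −0.97.

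The receptors upstream did not read lower as a group. Of 13 BMP and TGF-beta receptor genes, 1 was at least 1.5-fold higher and 0 lower, with a median of 0.16. Acvr1b, the activin type I receptor ALK4, read 7.11 with vehicle and 8.14 with Compound C, while Bmpr1a read 8.49 and 8.62 and Bmpr2 11.16 and 11.22. Of 14 ligand genes, 5 were lower, led by Bmp2 (−1.37), Tgfb3 (−1.14) and Inhba (−0.89). Bmp4 differed by −0.65 from vehicle but by 0.32 from the median of the other 4 arrays, so its sign turns on the vehicle array. None of 10 extracellular antagonists passed 1.5-fold. Smad9, a BMP-specific SMAD whose transcript is itself induced by BMP, read 7.0, 5.38, 5.0, 6.90 and 6.95. TGF-beta targets were mixed, with Ccn2 (−1.59), Skil (−0.75) and Tgfbi (−0.74) lower and Ski (0.63) higher. The second probe set of Ccn2 was dim and read −0.07.

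Interferon-stimulated genes (ISGs) are switched on by interferon through the promoter element called ISRE, and some directly by IRF3. Of 125 genes of interferon signalling and response, 35 were at least 1.5-fold lower, beside 9.99% of all genes, and 0 higher, beside 6.06%. At 2-fold 13 lay below vehicle, beside 2.52% of all genes, and the median was −0.31. Vehicle was the highest of the 5 arrays for 46 of the 125 and Compound C the lowest for 26. Against the median of the other 4 arrays the group median was −0.07. Rsad2, which encodes the antiviral enzyme viperin, read 10.77 under vehicle and 9.38 under Compound C, and 10.46, 9.04 and 10.39 under doxorubicin, GSK 690693 and tofacitinib. Cmpk2, its neighbour on the chromosome and partner in nucleotide metabolism, read 10.22, 8.65, 10.09, 8.49 and 9.53. Both were low with Compound C and GSK 690693, lowest with the latter, and high on the other 3 arrays. Ddx60, a helicase that assists RNA sensing, was low on the same arrays, at 8.30, 6.68, 8.04, 6.80 and 7.90, with Compound C lowest. Tlr3, the endosomal receptor of double-stranded RNA, read 8.38, 6.54, 8.25, 7.48 and 7.04.

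The families within the response are given first against vehicle, which was the highest array for 4 of 6 oligoadenylate synthetase genes, 5 of 9 sensors and 6 of 10 immunity GTPases. Against the other 4 arrays the medians of these 3 families were −0.13, −0.14 and −0.025. The Ifit genes with viperin had a median of −0.60 against vehicle and −0.37 against the other 4 arrays. For the Trim family these medians were −0.425 and −0.35. Vehicle was the highest array for 4 of 6 Ifit and viperin genes and for 6 of 10 Trim genes. At 1.5-fold 9.99% of all genes were lower, and the family counts stand beside that share. Of the oligoadenylate synthetase group, whose products activate RNase L, 4 of 6 were at least 1.5-fold lower, with Oasl1 (−1.66) and Oasl2 (−0.89) at the head and a median of −0.73. Nucleic acid sensors were lower in 5 of 9 cases with a median of −0.60, among them Dhx58 (−0.78), Zbp1 (−0.75) and Ifih1 (−0.66). Of 10 immunity GTPases, 4 were lower with a median of −0.495, including Gbp7 (−1.40) and Irgm2 (−1.31). Iigp1 read 8.70 with vehicle, 7.83 with Compound C, 7.08 with GSK 690693 and 5.96 with tofacitinib, and its difference from the median of the other 4 was 0.03. Among 36 other effectors 9 were lower, led by Apol9b (−1.67), Ddx60 (−1.62) and Apol9a (−1.36). Whether probe sets of the near-identical Apol9 genes, or of the Trim30 genes, also read their copies was not tested. Antigen presentation genes had 1 of 18 lower, Tap1 (−0.60), and a median of 0.05. The genes of interferons and their receptors had a median of 0.23, and of 11 transcription factors 2 were lower, Parp14 (−1.18) and Irf9 (−0.72).

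Trim30a and Trim30d, ubiquitin ligase genes that restrain inflammatory signalling, were the lowest ISGs. Trim30d read 7.90 under vehicle and 5.24 under Compound C, and 6.58, 6.47 and 5.46 under doxorubicin, GSK 690693 and tofacitinib. Trim30a read 5.79, 3.62, 5.06, 4.43 and 4.24, under the array median on 4 arrays. Vehicle was the highest array for both, and tofacitinib came next to Compound C. The RefSeq promoter windows of the pair, from 250 bases before to 50 bases after the start, were identical at 93.6% of 295 aligned bases without gaps. The letters GAAANNGAA, the core of the ISRE on either strand, occurred in the windows of 49 of 101 genes of the interferon list (48.5%) and in 8.35% of all 9703 described genes with a window. Among members at least 1.5-fold lower they occurred in 13 of 24, 54.2%. The stretches around the match are printed for 6 lower genes, 5′ to 3′ along the gene, with the matched letters in capitals and coordinates on GRCm38.p6.
Rsad2, chr12:26456508-26456627, minus strand: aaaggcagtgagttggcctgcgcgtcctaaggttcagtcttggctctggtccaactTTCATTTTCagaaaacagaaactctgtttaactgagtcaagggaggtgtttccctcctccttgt
Ifit1, chr19:34640736-34640855, plus strand: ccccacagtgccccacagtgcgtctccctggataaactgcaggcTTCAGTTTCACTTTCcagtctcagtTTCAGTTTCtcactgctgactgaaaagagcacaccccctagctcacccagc
Isg15, chr4:156200827-156200946, minus strand: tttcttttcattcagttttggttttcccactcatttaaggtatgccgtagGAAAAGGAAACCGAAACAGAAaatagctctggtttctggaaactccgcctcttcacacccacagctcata
Ddx60, chr8:61927967-61928086, plus strand: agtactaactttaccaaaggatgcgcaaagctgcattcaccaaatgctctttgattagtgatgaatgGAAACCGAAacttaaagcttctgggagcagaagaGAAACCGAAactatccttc
Trim30a, chr7:104465194-104465313, minus strand: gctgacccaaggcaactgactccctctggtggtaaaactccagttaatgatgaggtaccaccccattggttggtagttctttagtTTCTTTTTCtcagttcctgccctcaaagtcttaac
Trim30d, chr7:104507850-104507969, minus strand: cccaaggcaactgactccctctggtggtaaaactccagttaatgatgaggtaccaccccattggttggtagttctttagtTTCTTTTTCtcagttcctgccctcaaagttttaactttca
Isg15, the ubiquitin-like modifier, and Ifit1, which binds viral RNA ends, have 3 matches each in these windows, and differed by −0.64 and −0.89. Ddx60 has 2 matches and Rsad2 1, and both differed by more. No match was found in the windows of Tlr3, Cmpk2 or Oasl1, which says only that these letters are not in those windows.

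**Figure D3:**
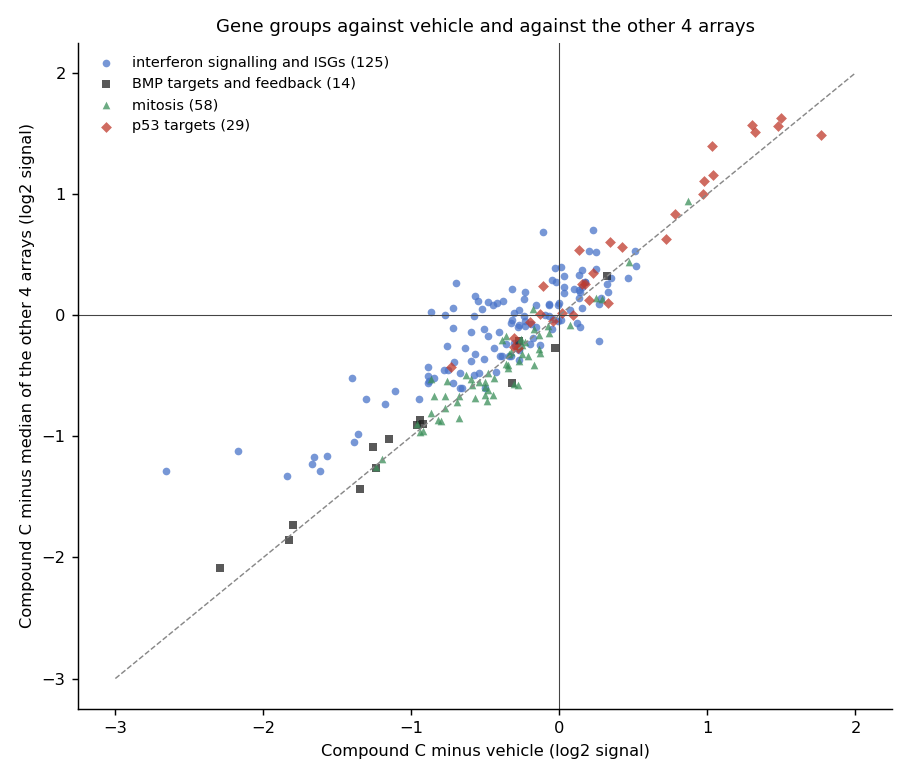
Each point is a gene of 1 of 4 groups. The horizontal axis is Compound C minus vehicle and the vertical axis is Compound C minus the median of the other 4 arrays, both in log2 signal, and the dashed line marks equal values. Mitosis, BMP and p53 genes lie along the line, whereas many interferon genes lie above it, with group medians of −0.31 against vehicle and −0.07 against the other 4 arrays.

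Inflammatory genes linked to NF-kB were mixed by class. Of 15 chemokines, which recruit leukocytes, 5 were at least 1.5-fold lower, beside 9.99% of all genes, 1 was higher and the median was −0.46. Ccl4 (−1.27), Cxcl16 (−0.82), Ccl7 (−0.77) and Ccl2 (−0.66) were lower and Ccl8 (0.71) was higher. Cxcl10, counted with the interferon group, read 12.47 under vehicle and 11.52 under Compound C, with 12.16 under doxorubicin, 12.26 under tofacitinib and the GSK 690693 array between Compound C and doxorubicin. Ccl5 read 12.96 and 12.95, near the top of the measured range. The inhibitor gene Nfkbia (−0.88) and its relative Nfkbie (−0.72) were lower. Of 17 adhesion and surface receptor genes, 4 were higher and 2 lower, with a median of 0.17. Icam1, an adhesion ligand for leukocyte integrins, read 8.03, 9.33, 9.26, 8.04 and 8.04, so that Compound C and doxorubicin were both high. Il6ra differed by 1.0, Cd44 by 0.91 and Kitl, the stem cell factor gene, by 2.04, while Tlr2 differed by −0.96 and Cd80 by −0.89. Plaur, the urokinase receptor, read 8.85, 7.42, 9.28, 9.18 and 8.90, below the other 4 arrays by 1.43, and its ligand Plau differed by −0.86. Acod1, which makes itaconate, read 9.30, 7.49, 9.65, 8.58 and 8.91.

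Sterol synthesis is controlled by SREBP2, which SCAP carries from the endoplasmic reticulum when sterols are scarce and INSIG1 holds back. Of 18 mevalonate and sterol step genes past the filter, the mevalonate and squalene steps had 3 of 7 at least 1.5-fold higher and 0 lower, with a median of 0.40. The sterol steps had 5 of 11 higher, 2 lower and a median of 0.47. Over all genes 6.06% were that much higher and 9.99% that much lower. Hmgcs1, which makes HMG-CoA, read 10.03 under vehicle and 11.05 under Compound C, and 8.71, 10.24 and 10.00 under doxorubicin, GSK 690693 and tofacitinib. Sqle, the squalene epoxidase, read 7.96, 9.47, 6.43, 8.76 and 8.28. Insig1 read 9.21, 10.89, 8.69, 10.23 and 9.53. Compound C was the highest and doxorubicin the lowest array in all 3, and GSK 690693 was the next highest. Msmo1 (1.09), Cyp51 (1.07), Fdft1 (0.87), Fdps (0.85), Hsd17b7 (0.82) and Lss (0.59) were higher as well, but the late steps Nsdhl (−0.80) and Dhcr7 (−0.68) were lower. The sterol carrier Stard4 differed by 1.39. Fatty acid synthesis, the branch driven by SREBP1, had a median of 0.01 over 15 genes with only Scd1 (0.73) past 1.5-fold, and none of 6 targets of the oxysterol receptor LXR passed it.

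The sterol response element TCACCCCAC was present in the window of 1 of the 10 higher members with a window, Hmgcs1, and in 0.76% of all genes. Its stretch is printed with the element in capitals.
Hmgcs1, chr13:119690158-119690277, plus strand: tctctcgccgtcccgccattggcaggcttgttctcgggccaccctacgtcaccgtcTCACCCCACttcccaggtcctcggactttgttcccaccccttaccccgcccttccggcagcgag
Glycerolipid synthesis genes had 2 of 18 higher, 3 lower and a median of 0.035. Lpin1 differed by 1.96 and Lpin3, a related phosphatase, read 7.15 with vehicle and 5.93 with Compound C. The acyltransferases Agpat2 (−0.72) and Agpat4 (−0.79) were lower, and the choline kinase Chka differed by 1.27 on the probe set used and by 0.02 on a dim second one.

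**Figure D4:**
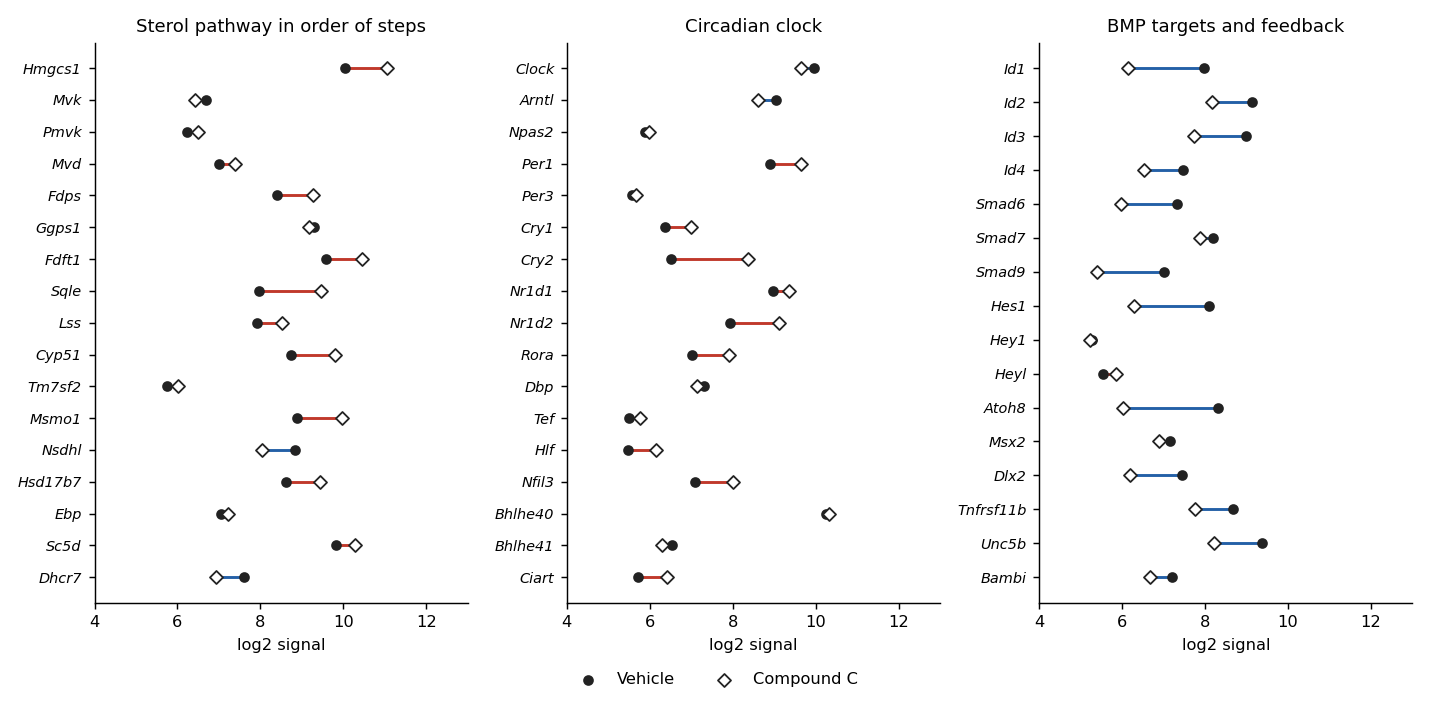
Log2 signal with vehicle (filled circles) and Compound C (open diamonds) for genes of sterol synthesis in the order of the steps, the circadian clock, and BMP targets. Red lines join pairs in which Compound C was higher and blue lines pairs in which it was lower. Hmgcs1, Sqle and Cyp51 are joined by red lines and the late steps Nsdhl and Dhcr7 by blue, and all BMP targets shown lie to the left of vehicle with Compound C except Heyl.

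The integrated stress response raises translation of ATF4, which induces amino acid genes and the feedback phosphatase subunit PPP1R15A. Of 22 factors and feedback genes, 12 were at least 1.5-fold higher, beside 6.06% of all genes, and 1 was lower, with a median of 0.64. Atf4 read 7.99 under vehicle and 9.08 under Compound C, and 6.73, 8.38 and 8.21 under doxorubicin, GSK 690693 and tofacitinib. Ppp1r15a read 6.66, 8.16, 6.0, 6.90 and 6.70. Sesn2, a leucine sensor and stress brake on mTORC1, differed by 1.03, Eif4ebp1 by 0.85, Ddit3, which encodes CHOP, by 0.73 and Atf3 by 0.67. The pseudokinase gene Trib2 was lower (−0.95). The effector classes had fewer such genes. Transporters had 3 higher and 3 lower of 17, with Slc7a11 (2.0) and Slc7a3 (1.3) against Slc7a2 (−1.01) and Slc38a1 (−0.90). Of 17 amino acid synthesis genes none was 1.5-fold higher and Pck2 (−0.79) was lower, and of 18 tRNA synthetases only Cars (0.66) was higher. The Slc7a11 value rests on 1 probe set, since the second, below the filter, read 2.98 and 3.16. ATF4 pairs with C/EBP factors on composite elements, and the letters TGATGNAA occurred in 14 of 56 windows of the list (25.0%) and in 2.81% of all genes. Slc7a11 and Chac1, a glutathione-degrading enzyme that differed by 0.61, are printed with the match in capitals.
Slc7a11, chr3:50443614-50443733, minus strand: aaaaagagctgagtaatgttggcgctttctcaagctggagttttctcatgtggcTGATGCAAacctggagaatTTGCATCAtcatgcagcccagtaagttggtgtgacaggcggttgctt
Chac1, chr2:119350992-119351111, plus strand: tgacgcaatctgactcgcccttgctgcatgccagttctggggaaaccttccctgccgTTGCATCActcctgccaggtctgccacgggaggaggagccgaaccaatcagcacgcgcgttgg

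Genes of lysosomes and nutrient sensing are in part controlled by TFEB and TFE3 through the letters CACGTG. Of 34 lysosomal hydrolases and activators, 30 read above vehicle, beside 5736 of all 12317 genes. Only Dpp7 (0.63) did so by 1.5-fold or more, and the median was 0.28. Vehicle was the lowest array for 22 of the 34 and the median against the other 4 arrays was 0.10. Of 29 TFEB and nutrient regulators, 7 were higher, beside 6.06% of all genes, and 3 lower, a share near the 9.99% of all genes. Fnip2 read 7.16 under vehicle and 8.42 under Compound C, and 6.56, 8.16 and 7.24 under doxorubicin, GSK 690693 and tofacitinib. The Rag GTPases Rragd and Rragc differed by 1.0 and 0.77, and Tsc1, an mTORC1 inhibitor, by 0.86. Castor1, the arginine sensor, read 7.59, 6.52, 7.24, 7.77 and 8.07, and the GATOR1 subunit genes Depdc5 (−0.66) and Nprl3 (−0.62) were lower. Autophagy initiation genes had 4 of 19 higher and 0 lower, with a median of 0.38 against vehicle and 0.10 against the other 4 arrays. Atg14, a subunit of the lipid kinase complex that starts autophagosomes, read 6.57, 7.81, 5.95, 7.29 and 6.96, and Atg101 differed by 0.95. The letters CACGTG occurred in 29 of 116 windows of the list (25.0%), in 4 of 13 higher members and in 11.8% of all genes. Fnip1 and Rragc are printed with them in capitals.
Fnip1, chr11:54438046-54438165, plus strand: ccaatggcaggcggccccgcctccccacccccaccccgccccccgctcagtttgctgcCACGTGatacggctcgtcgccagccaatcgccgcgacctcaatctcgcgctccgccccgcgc
Rragc, chr4:123917263-123917382, plus strand: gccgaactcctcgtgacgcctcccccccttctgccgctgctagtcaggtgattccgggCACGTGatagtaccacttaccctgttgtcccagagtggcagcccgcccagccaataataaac

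The circadian clock group had 8 of 18 genes at least 1.5-fold higher, beside 6.06% of all genes, and 0 lower. Its median was 0.34, and Compound C was the highest array for 12 of the 18. The clock is a loop in which CLOCK and ARNTL activate the PER and CRY genes, whose products repress them. Cry2, one of the repressors, read 6.51 under vehicle and 8.37 under Compound C, and 5.96, 6.79 and 6.43 under doxorubicin, GSK 690693 and tofacitinib. Nr1d2, the REV-ERB beta repressor, read 7.94, 9.11, 7.68, 8.02 and 8.09. Per1 read 8.89, 9.65, 7.99, 8.23 and 8.28, so both vehicle and Compound C lay above the other 3. Nfil3 (0.92), Rora (0.91), Ciart (0.71), Hlf (0.68) and Cry1 (0.63) were higher. The activator Arntl read 9.05 with vehicle and 8.60 with Compound C. Cells of 1 time point cannot separate a level from a phase of the rhythm.

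Targets of p53, the damage-responsive factor, had 11 of 29 genes at least 1.5-fold higher, beside 6.06% of all genes. Only 1 was lower, beside 9.99%, and the median was 0.23. Perp, a desmosomal effector of apoptosis, read 6.76 under vehicle and 8.53 under Compound C, and 7.67, 7.03 and 7.06 under doxorubicin, GSK 690693 and tofacitinib. Gtse1, which binds p53 in late cell cycle, read 9.05, 10.53, 7.79, 8.89 and 9.15. Polk, a translesion polymerase, read 8.83, 10.13, 8.11, 8.33 and 8.79. The thiamine transporter Slc19a2 (1.5), the death receptors Eda2r (1.32) and Fas (0.98), Trp53inp1 (1.04) and Zmat3 (0.78) were higher. Mir34a, described with the miRNAs, belongs to the same set of targets. The widely used p53 reporters differed less, since Cdkn1a read 11.97 with vehicle and 12.10 with Compound C and Mdm2 11.38 and 11.72. Doxorubicin, a DNA-damaging agent, gave the lowest value of the 5 arrays for Gtse1, Polk, Cdkn1a and Mdm2. Of 24 apoptosis regulators 2 were at least 1.5-fold higher, Dapk1 (2.05) and Bcl2l1 (0.80). At least as far below were 6, among them Bcl2 (−1.19) and Bid (−1.11).

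Immediate early factors respond within minutes to growth factors and cAMP. Of 26 EGR, NR4A and other such factors, 6 were at least 1.5-fold higher, beside 6.06% of all genes. As far below were 3, Myc (−1.05), Btg2 (−0.73) and Egr2 (−0.72), a share near the 9.99% of all genes. Nr4a1, an orphan nuclear receptor, read 8.42 under vehicle and 10.23 under Compound C, and 7.59, 7.72 and 8.54 under doxorubicin, GSK 690693 and tofacitinib. Nr4a2 read 8.47, 9.80, 8.45, 7.42 and 7.98, and Nr4a3 read 5.72, 7.12, 6.31, 5.0 and 5.37. All 3 were highest with Compound C and lowest with GSK 690693 or doxorubicin. Of 10 AP-1 genes, 5 were higher and 2 lower, with Mafk (1.61), Fos (1.15), Fosl2 (0.86) and Junb (0.67) against Jun (−1.11) and Jund (−0.99). Klf5, a zinc finger factor of proliferating cells, differed by 1.45 and the growth factor gene Hbegf by −1.46. ERK feedback genes had 1 of 23 higher, 4 lower and a median of 0.08. Foxo3, a factor held in the cytoplasm by AKT, read 7.30, 8.67, 6.37, 7.27 and 7.22, and the FOXO target Ypel2 differed by 1.5 and the insulin receptor substrate Irs2 by 0.96. Of 24 FOXO targets, 6 were at least 1.5-fold higher and 3 lower, with a median of 0.21.

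Cell division genes read lower. Of 58 mitosis genes, 53 lay below vehicle, beside 6435 of all 12317 genes. At 1.5-fold 19 were lower, beside 9.99% of all genes, and 1 was higher, with a median of −0.41. Compound C was the lowest array for 28 of the 58, and against the other 4 arrays the median was −0.51. Kif23, a kinesin of the central spindle, read 7.92 under vehicle and 6.68 under Compound C, and 7.47, 7.94 and 8.12 under doxorubicin, GSK 690693 and tofacitinib. Plk1, the polo-like mitotic kinase, read 8.30, 7.10, 7.47, 8.27 and 8.49. Compound C was lowest and doxorubicin next in both. Ndc80 (−0.96), Kif11 (−0.94), Top2a (−0.92) and Prc1 (−0.87) were lower, and Kif18b (0.87) was the exception. In a bulk extract, fewer cells in a stage and less RNA per cell cannot be told apart. DNA repair genes had 8 of 18 lower, beside the same 9.99%, and 0 higher. Their median was −0.55, and Brca2 (−1.02) read lowest against vehicle. Replication genes had 7 of 46 lower and a median of −0.15, and the primase and polymerase alpha subunits Prim1 (−1.42) and Pola2 (−1.27) stood out. Genes of G1 and CDK inhibitors had a median of 0.00.

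Mitotic promoters carry a cell cycle homology region, TTTGAA on either strand, near CCAAT boxes, and the DREAM and MuvB complexes act there. The letters TTTGAA occurred in 34 of 48 mitosis windows (70.8%), in 1 of 15 repair windows, in 7 of 38 replication windows and in 13.6% of all genes. CCAAT occurred in 35 of 48 (72.9%) and in 42.4%. The stretches of Kif23, Kif11 and Prc1, lower mitosis genes with both, are printed with both motifs in capitals.
Kif23, chr9:61946792-61946911, minus strand: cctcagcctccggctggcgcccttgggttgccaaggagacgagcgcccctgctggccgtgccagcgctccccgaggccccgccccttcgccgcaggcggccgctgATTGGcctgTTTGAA
Kif11, chr19:37376262-37376381, plus strand: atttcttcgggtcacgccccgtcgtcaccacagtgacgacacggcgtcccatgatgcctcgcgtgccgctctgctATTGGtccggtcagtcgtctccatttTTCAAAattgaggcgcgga
Prc1, chr7:80294332-80294451, plus strand: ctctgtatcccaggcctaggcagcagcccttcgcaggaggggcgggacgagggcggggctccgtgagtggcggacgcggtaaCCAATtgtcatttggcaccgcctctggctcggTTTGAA

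Genes of the transcription and RNA processing machinery were grouped into families by their symbols after the values were seen. Of 15 Integrator subunits, which cut nascent RNA and act on paused polymerase, 13 lay below vehicle, beside 6435 of all 12317 genes. At least 1.5-fold lower were 4, beside 9.99% of all genes, and the median was −0.53. Ints6 read 8.11 under vehicle and 6.40 under Compound C, and 6.61, 8.0 and 8.20 under doxorubicin, GSK 690693 and tofacitinib. Ints3 read 8.47, 7.14, 8.41, 8.59 and 8.71, so in it Compound C alone was low. Gtf2b, which encodes the initiation factor TFIIB, read 7.59, 5.77, 6.92, 7.98 and 7.89, and 5 of 14 genes of the TFII families were lower and 0 higher. TBP-associated factors, which include the RNA polymerase I initiation factors Taf1b (−0.82) and Taf1c (−0.65), had 6 of 19 lower and 0 higher and a median of −0.01. Mediator subunits had 3 of 29 lower, a share near the 9.99% of all genes, 1 higher and a median of 0.07. Among SR splicing factors, Srsf1 (−1.27) and Srsf6 (−0.93) were lower and Srsf4 (0.83) higher, and a second Srsf1 probe set read −0.48. The L-type cyclins, partners of splicing kinases, were higher, and Ccnl2 read 8.71, 9.86, 8.63, 8.69 and 8.74, with 0.69 on its second probe set. Ccnl1 differed by 1.05 and the kinases Clk1 and Clk4 by 0.61 each.

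Chromatin silencing genes held both extremes of the comparison. Next to Tasor, the histone methyltransferase gene Setdb1 differed by −0.82. Of 8 HUSH and partner genes 7 lay below vehicle, beside 6435 of all 12317 genes, with a median of −0.34. Of 9 SMC5/6 complex genes, Eid3 was the only one at least 1.5-fold higher, and Slf1 (−0.82) the only one as much lower. Of 21 histone demethylase and methylase genes, 3 were higher, beside 6.06% of all genes, and 2 lower, a share near the 9.99% of all genes. The median of the 21 was 0.30. The demethylases Kdm3b (1.0), Kdm4c (0.70) and Kdm4b (0.66) were higher, and the demethylase Kdm6b (−0.66) and the methyltransferase Ezh2 (−0.83) lower.

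Genes of surface signals and matrix included some of the lowest values. Has2, the main hyaluronan synthase of fibroblasts, read 10.26 under vehicle and 7.68 under Compound C, and 8.46, 9.21 and 9.82 under doxorubicin, GSK 690693 and tofacitinib. Dkk2, a secreted Wnt modulator, read 8.60, 7.08, 8.56, 8.76 and 8.88. Jag1, a Notch ligand, read 8.0, 6.64, 7.63, 7.96 and 8.11, whereas the receptor gene Notch1 read 6.36, 7.34, 6.26, 6.34 and 6.22. In Dkk2, Jag1 and Notch1 the Compound C array stood alone. Rgs4, a brake on G protein signals, read 7.54, 4.83, 5.72, 7.25 and 8.09. Ankrd1, a YAP and SRF target, read 12.01, 10.20, 11.25, 11.90 and 11.63. All 19 SRF and contractile genes lay below vehicle, beside 6435 of all 12317 genes. Only 3 did so by 1.5-fold or more, among them Lmod1 (−1.04), and the median was −0.19. Collagens had a median of 0.06 with none of 17 past 1.5-fold. Pdgfrb, the PDGF receptor of fibroblasts, differed by −1.21, and the ephrin receptor Epha2 by 1.33.

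Groups of housekeeping genes differed by little. The list of ribosomal protein genes had 44 members past the filter, and each of these lay above vehicle, 2 of them by at least 1.5-fold, Rps28 (0.62) and Rps27 (0.59), with a median of 0.32. The list does not hold every such gene, and Rpl21, which is not in it, read 12.5 under both vehicle and Compound C. Vehicle was the lowest array for 30 of the 44, and against the other 4 arrays the median was 0.15. Genes of ribosome biogenesis lay on the other side, with 34 of 44 below vehicle, beside 6435 of all 12317 genes, and a median of −0.19. At 1.5-fold 5 of the 44 were lower, a share near the 9.99% of all genes. Polr1b (−1.09), a subunit of RNA polymerase I, read lowest. Subunits of respiratory complexes II to V had 6 of 37 higher, 0 lower and a median of 0.21, with vehicle lowest for 24. Targets of the antioxidant factor NRF2 had 3 of 22 higher and a median of 0.29, and the heme oxygenase gene Hmox1 read 10.48 with vehicle and 11.59 with Compound C.

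**Figure D5:**
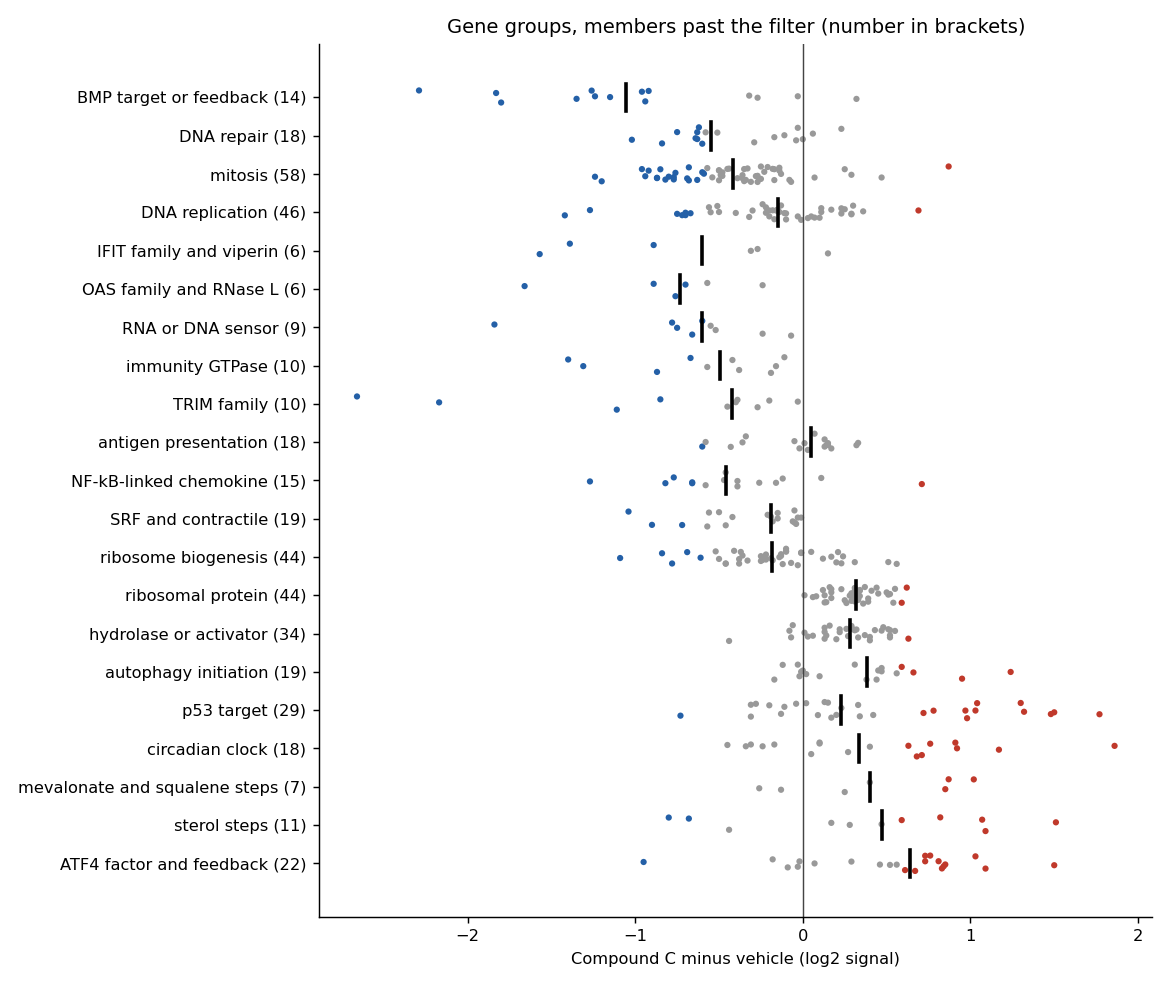
Difference between Compound C and vehicle (horizontal axis, log2 signal) for the genes past the filter in 21 groups. Each point is a gene, red or blue where it is at least 1.5-fold higher or lower, and the black bar is the median. Medians run from −1.05 for BMP targets to 0.64 for ATF4 factors and feedback genes, and the 44 listed ribosomal protein genes lie right of 0.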

How the data were processed

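The authors deposited log2 signals for 41345 probe sets on 5 whole-transcript Affymetrix arrays, each hybridised with cDNA from 300 ng of total RNA. The submitters' processing notes name Affymetrix Expression Console 1.3.1.187. How probe signals were summarised, background-corrected and normalized is not stated by any source at hand. The log base was inferred from values of 1.05 to 13.18. A normalization that equalises arrays would have removed a shift of most genes before deposit.

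Of the probe sets, 23521 had 1 symbol in the platform annotation, and the brightest per gene (highest mean of 5 arrays) was used. A gene was described if its value reached the array median, 5.37 to 5.44, on at least 1 array. Differences were counted at 2-fold, and at 1.5-fold within groups, with pandas 2.3.3 and numpy 2.4.6. The counting was tested on simulated data. No test between groups was possible.

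Gene lists (21 lists, 97 roles) and the comparison itself were chosen with earlier results of these data known. Genes are named if among the 30 largest differences each way, the 15 furthest outside the other 4 arrays each way, the 6 largest past 1.5-fold in a role, or core members of a list. Promoter windows of 300 bases and miRNAs came from RefSeq (GRCm38.p6). Of the miRNA genes past the filter, 81 of 97 matched a hairpin. The number of arrays limits the precision.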

Additional observations from a re-analysis of the deposited data

Results flagged for a closer look

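Probe sets without a single gene symbol were outside the comparison but held differences of the same size. Of 4847 probe sets with no symbol listed that passed the filter, 215 were at least 2-fold higher with Compound C than with vehicle and 151 at least 2-fold lower, within a range of −3.39 to 3.69. Of 913 probe sets with several symbols that passed it, 16 were at least 2-fold higher and 21 lower, between −1.66 and 2.85. What these probe sets measure was not analysed here.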

How the results depend on the processing

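Measured against the median of the 4 remaining arrays rather than the vehicle array, 5 groups instead of 9 had a median of 0.3 or more. Of 90 group medians followed, 38 moved by over 0.1 with that reference and 2 others of 0.2 or more in size changed sign, and of 382 genes followed, 375 kept their sign but only 293 stayed at least 1.5-fold apart. Those were the ISG15 system (0.028) and the v-ATPase (−0.10), and of the genes Bmp4 (0.32), Iigp1 (0.025), Oas1b (0.27) and Rtp4 (0.06) changed sign. Without a filter, the median of the muscle markers changed sign (0.03). Over centring, quantile normalization, the other reference, no filter, a filter raised by 1 and the mean over probe sets, 140 to 196 genes were at least 2-fold higher and 261 to 333 lower, all within 1.5 times the counts reported. Signal over background is not known for these arrays, so differences of dim genes such as Mir181a-1 and Trim30a carry the most doubt. No paired analysis was possible because each group has 1 array and the labels give no replicate numbers.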
